A study of Mus musculus with 14 samples.

Results

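The transcripts of 10 genes of NF-κB signaling were followed in T cells of leukemic mice: the 5 NF-κB subunits (Nfkb1, Nfkb2, Rel, Rela and Relb), the 3 classical IκB inhibitors (Nfkbia, Nfkbib and Nfkbie), the ubiquitin-editing enzyme A20 (Tnfaip3) and the kinase IKKβ (Ikbkb). They were chosen by symbol from the 24091 genes of the count table, and all 10 passed the filter on low counts with 12248 genes tested in all. T cells (200000 per mouse) had been sorted from the spleen of 8 Mir142+/+BCR-ABL mice, a model of chronic phase chronic myeloid leukemia (CP CML), and of 6 Mir142-/-BCR-ABL mice, a model of blast crisis (BC CML), and each mouse gave 1 library. Both groups were C57Bl/6j (CD45.2) mice of both sexes, 6 to 10 weeks old, and carried the SCLtTA and BCR-ABL transgenes, with BCR-ABL switched on for 3 weeks by withdrawal of tetracycline (tet-off). The groups differed in Mir142, whose deletion was present in every cell of the BC CML mice, so that the T cells and the leukemic cells around them lacked it alike. The SCL sequences that drive tTA act mainly in blood stem and progenitor cells. All CP CML library names share 1 leading number and all BC CML names another, a number the labels do not explain, so whatever it marks and the genotype cannot be told apart.

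NF-κB proteins are dimers built from 5 subunits, which IκB proteins hold in the cytoplasm in resting cells. The IκB kinase complex (IKKα, IKKβ and NEMO) phosphorylates the IκB proteins, which are then degraded, and the freed dimers enter the nucleus and bind κB sites in DNA. In T cells the T cell receptor with CD28 and receptors of the TNF family feed this pathway, which is known for its part in T cell activation, survival and cytokine production. Several of its brakes, among them IκBα and A20, are themselves encoded by NF-κB target genes and close a negative feedback loop.

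The targeted gene followed the labels. Mir142 had 302 to 650 reads in the CP CML libraries and 0 reads in all 6 BC CML libraries. The depth was between 15703702 and 19914531 reads per library. T cell identity markers were abundant in every mouse. Of 10 tested, 5 were higher, 1 was lower and 4 were not called, with sums of 3803 to 4413 CPM in CP CML and of 4740 to 5186 CPM in BC CML (CPM, normalized read counts scaled to 1 common library size). The level of Cd3e was between 362.9 and 433.8 CPM in CP CML and between 385.0 and 430.4 in BC CML. Over all genes tested, 65.2% were called, 32.6% as higher and 32.7% as lower, and 19.3% were higher without overlap. All marker counts in this paragraph have to be read against these shares. Markers of other cells were present as well. The summed level of 9 B cell markers was 60.2 to 183.9 CPM in CP CML and 105.7 to 525.6 CPM in BC CML, and 7 of the 9 passed the test as higher in BC CML. The sum of 12 myeloid markers was 81.5 to 729.6 CPM in CP CML and 843.5 to 2216 CPM in BC CML, with 10 of the 12 higher. All 6 natural killer cell markers were higher without overlap. Their sums were 140.1 to 187.8 CPM in CP CML and 447.2 to 682.6 CPM in BC CML. Klra8 among them was between 0 and 0.31 CPM in CP CML and between 10.02 and 20.3 CPM in BC CML. Eomes made up the largest part of the sums (77.6 ± 14.2 and 256.7 ± 25.4 CPM, SD). The paper counts Eomes among the marker genes of memory T cells and Gzma, also of the 6, among those of natural killer T cells. These sums therefore need not come from natural killer cells alone, and the part of T cells in them was not tested. Of 6 dendritic cell markers tested, 4 were higher (sums of 76.5 to 249.3 CPM and of 176.1 to 850.4 CPM). The largest part of these sums was Cd74 (91.0 ± 43.3 and 337.5 ± 190.6 CPM, SD). The sums were highest in CP CML mouse 1 and BC CML mouse 6, the mice with the highest B cell marker sums. The part of B cells in them was not tested. Of 6 erythroid markers tested, 3 were higher without overlap (sums of 18.8 to 72.3 CPM and of 55.8 to 87.1 CPM). Of 5 regulatory T cell markers, 2 were higher and 2 lower, and the sums overlapped (461.2 to 523.0 CPM in CP CML and 424.8 to 583.4 CPM in BC CML). The higher ones were Ikzf2 (202.8 ± 22.9 CPM in CP CML and 311.6 ± 62.6 in BC CML, SD) and Tnfrsf18 (51.2 ± 4.33 and 63.1 ± 4.34 CPM). The lower ones were Foxp3, the transcription factor that defines these cells (94.2 ± 8.14 and 28.5 ± 4.32 CPM), and Ctla4 (65.5 ± 9.42 and 25.9 ± 5.89 CPM). No B cell or myeloid marker was at 0 in a BC CML mouse, whereas Elane and Cebpe reached 0 in CP CML. In bulk samples such as these, a larger share of a cell type and more of a transcript per cell cannot be told apart.

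All 10 genes differed between the groups in edgeR's quasi-likelihood test (Benjamini-Hochberg adjusted p-value below 0.05 over 12248 genes), with 7 higher and 3 lower in BC CML. This has to be read against a background in which 65.2% of all genes tested were called, 32.6% as higher and 32.7% as lower. The changes were mostly small: the median size over all genes called was 0.43 on the log2 scale, and only Nfkbie, Tnfaip3 and Ikbkb exceeded it. The median log2 fold change of the 10 genes was 0.19 against -0.01 for all genes tested. The groups did not overlap for 4 of the genes, Nfkbie (higher) and Rela, Nfkbib and Ikbkb (lower), where 19.3% of all genes tested were higher without overlap and 17.6% were lower without overlap. With both mice of the highest B cell marker sums left out (CP CML mouse 1 and BC CML mouse 6, a choice made after the data were seen), 4 genes were called higher in place of 7, and 3 were again called lower.

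**Figure D1:**
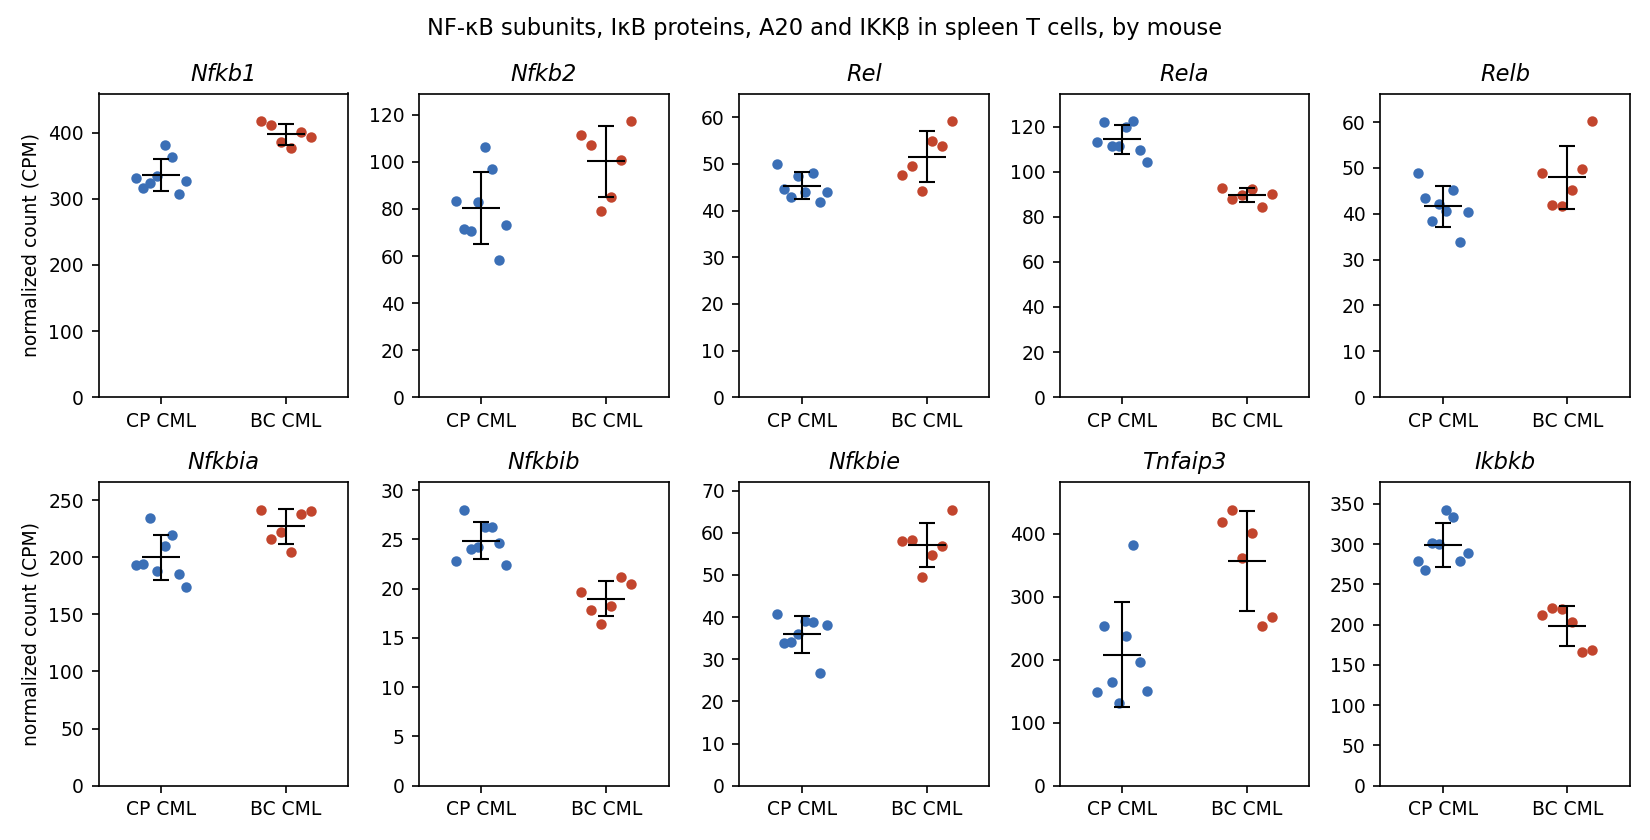
Normalized counts (CPM, linear axes from 0) of the 10 genes in 8 CP CML mice (blue) and 6 BC CML mice (red), 1 point per mouse, with the mean and SD in black. The groups are apart for Rela, Nfkbib, Nfkbie and Ikbkb and overlap for the other genes.

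The promoters are shown because some genes of the pathway are known targets of NF-κB. RefSeq promoter windows (GRCm38.p6, from 250 bases before to 50 bases after the start site) were at hand for 7 of the 10 genes, and matches to the κB consensus of 10 bases were sought on both strands. Of these 7 genes, 5 held a match, against 12.2% of 9548 tested genes and 9.55% of all 27025 genes with a window. They were Nfkb2, Rel, Nfkbia, Nfkbie and Tnfaip3, and the windows of Rela and Nfkbib held none. The promoters of Nfkb1, Relb and Ikbkb were not analysed here. Whether a match bears on a gene's change was not tested. The windows below run 5′ to 3′ along the gene's strand, with the matches in capitals, and lie at chr19:46304487-46304786 (+ strand, Nfkb2), chr11:23770920-23771219 (- strand, Rel), chr12:55492598-55492897 (- strand, Nfkbia), chr17:45555450-45555749 (+ strand, Nfkbie), chr10:19015361-19015660 (- strand, Tnfaip3).
Nfkb2: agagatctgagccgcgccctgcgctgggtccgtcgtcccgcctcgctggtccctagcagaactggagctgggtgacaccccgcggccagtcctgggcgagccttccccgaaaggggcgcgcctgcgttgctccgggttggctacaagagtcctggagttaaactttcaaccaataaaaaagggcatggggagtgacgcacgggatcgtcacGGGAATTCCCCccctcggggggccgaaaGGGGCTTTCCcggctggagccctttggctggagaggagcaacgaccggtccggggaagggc
Rel: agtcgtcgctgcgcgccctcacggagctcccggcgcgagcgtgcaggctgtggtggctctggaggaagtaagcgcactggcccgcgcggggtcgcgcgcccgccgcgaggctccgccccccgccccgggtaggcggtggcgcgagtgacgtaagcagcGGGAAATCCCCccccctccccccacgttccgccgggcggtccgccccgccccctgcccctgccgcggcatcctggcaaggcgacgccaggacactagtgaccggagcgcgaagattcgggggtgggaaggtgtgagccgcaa
Nfkbia: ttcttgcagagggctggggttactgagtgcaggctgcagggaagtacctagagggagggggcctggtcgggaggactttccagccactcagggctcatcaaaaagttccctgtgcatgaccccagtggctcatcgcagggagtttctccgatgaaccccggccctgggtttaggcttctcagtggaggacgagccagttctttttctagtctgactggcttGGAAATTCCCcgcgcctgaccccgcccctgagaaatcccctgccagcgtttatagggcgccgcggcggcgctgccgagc
Nfkbie: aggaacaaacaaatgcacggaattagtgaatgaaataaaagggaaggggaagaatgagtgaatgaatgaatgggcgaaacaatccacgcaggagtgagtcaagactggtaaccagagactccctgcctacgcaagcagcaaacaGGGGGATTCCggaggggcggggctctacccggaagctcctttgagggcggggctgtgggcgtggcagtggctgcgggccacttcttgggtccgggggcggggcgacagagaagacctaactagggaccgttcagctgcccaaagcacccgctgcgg
Tnfaip3: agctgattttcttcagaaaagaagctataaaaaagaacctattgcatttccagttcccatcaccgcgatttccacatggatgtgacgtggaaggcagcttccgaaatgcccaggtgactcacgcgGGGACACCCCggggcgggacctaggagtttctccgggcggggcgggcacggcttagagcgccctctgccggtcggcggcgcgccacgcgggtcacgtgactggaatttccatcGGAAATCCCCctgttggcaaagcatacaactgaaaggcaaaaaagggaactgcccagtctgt
Tnfaip3 had separate matches at -125 and -12 from the start site, Nfkbia 1 at -29 and Nfkbie 1 at -106. Rel had a pair of overlapping matches at -92 and -91, and Nfkb2 had an overlapping pair at -39 and -38 and a separate match at -11, with further ones in its other start windows. A second Tnfaip3 window held none. A match is a stretch of letters, not a shown binding site, and a window without one says nothing of binding elsewhere.

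Among the subunits, Rela fell and the other 4 were higher in BC CML. Rela encodes p65, the subunit with a strong transactivation domain in the classical p50/p65 dimer. Its level was lowest 104.3, median 112.4 and highest 122.5 CPM in CP CML, and lowest 84.3, median 90.0 and highest 92.7 CPM in BC CML. Every BC CML mouse lay below every CP CML mouse. The log2 fold change was -0.35 ± 0.04 (SE; adjusted p = 7.55e-07, edgeR), and all 14 fits that left out 1 mouse kept the call. Nfkb1, which encodes p105, the precursor of p50, ran from 307.4 (median 329.5) to 380.6 CPM in CP CML and from 376.5 (median 396.8) to 417.5 CPM in BC CML. The groups touched at 1 point, since CP CML mouse 5 was above BC CML mouse 4, and the other 5 BC CML mice were above all CP CML mice. The rise was 0.24 ± 0.05 on the log2 scale (adjusted p = 0.000166, edgeR). Thus the transcripts of both partners of the classical dimer moved in opposite directions.

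Rel encodes c-Rel, a subunit prominent in lymphocytes, and Nfkb2 (p100, the precursor of p52) and Relb encode the dimer of the alternative pathway. Rel ran from 41.8 (median 44.4) to 50.1 CPM in CP CML and from 44.3 (median 51.7) to 59.2 CPM in BC CML, higher by 0.18 ± 0.06 on the log2 scale (adjusted p = 0.0133, edgeR). The groups overlapped, with 3 of 6 BC CML mice above the highest CP CML mouse. Nfkb2 ran from 58.4 (median 78.1) to 106.3 CPM in CP CML and from 79.2 (median 104.0) to 117.3 CPM in BC CML (log2 fold change 0.32 ± 0.13, adjusted p = 0.0376, edgeR). Relb ran from 33.9 (median 41.3) to 48.8 CPM in CP CML and from 41.6 (median 47.0) to 60.2 CPM in BC CML (log2 fold change 0.20 ± 0.09, adjusted p = 0.0456, edgeR). For both, 4 CP CML mice lay above the lowest BC CML mouse.

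The adjusted p-values of Nfkb2 and Relb lay close to the threshold, and leaving out any 1 of several mice took them past it. Nfkb2 lost its call without CP CML mouse 2, 3, 7 or 8 or without BC CML mouse 1, 2, 5 or 6 (adjusted p between 0.0583 and 0.0897, edgeR), with log2 fold changes of 0.26 to 0.31 against 0.32. Relb lost it without CP CML mouse 2, 3, 4, 5, 7 or 8 or without BC CML mouse 1, 5 or 6, and without BC CML mouse 6 its log2 fold change was 0.13 (adjusted p = 0.146, edgeR). Nfkb2, Rel, Relb and Nfkbie were all highest, among the BC CML mice, in mouse 6, which also had the highest summed B cell markers (525.6 CPM) and myeloid markers (2216 CPM), and all 4 were lowest in mouse 3, which had the lowest B cell marker sum (105.7 CPM). Among the CP CML mice, Rel, Relb and Nfkbie were highest in mouse 1, which had the highest B cell marker sum (183.9 CPM). The lowest CP CML mouse for all 4 genes, however, was mouse 7, whose B cell marker sum (87.0 CPM) was above those of mice 2, 3 and 4, and Nfkb2 was highest in mouse 5 (B cell marker sum 103.3 CPM). Without CP CML mouse 1 and BC CML mouse 6, the log2 fold change was 0.27 for Nfkb2 (adjusted p = 0.106), 0.16 for Relb (adjusted p = 0.0541) and 0.16 for Nfkbia (adjusted p = 0.0542), against 0.32, 0.20 and 0.18 with all mice (edgeR). Rel kept its call (log2 fold change 0.16, adjusted p = 0.0238). The part of B cell and myeloid RNA in these levels was not tested further.

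Per gene length, Nfkb1 was the most abundant subunit transcript in every mouse. In FPKM (CPM per kilobase of gene, computed from the gene lengths in the count table), Nfkb1 made up 43.6% ± 1.12 of the summed subunit level in CP CML (SD, n = 8) and 47.8% ± 1.83 in BC CML (SD, n = 6). Rela, the next, made up 25.6% ± 1.36 in CP CML (24.2 to 27.9%) and 18.6% ± 1.12 in BC CML (17.4 to 20%), with no overlap. The share of Nfkb2 was 12.3% ± 1.5 and 14.3% ± 1.51, that of Rel 10.7% ± 0.64 and 11.2% ± 1.02, and that of Relb 7.72% ± 0.65 and 8.20% ± 0.90, in the same order, and each of these overlapped between the groups. The lower share of Rela was thus spread over the other subunits, the largest part of it over Nfkb1. These shares describe mRNA and were given no test.

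**Figure D2:**
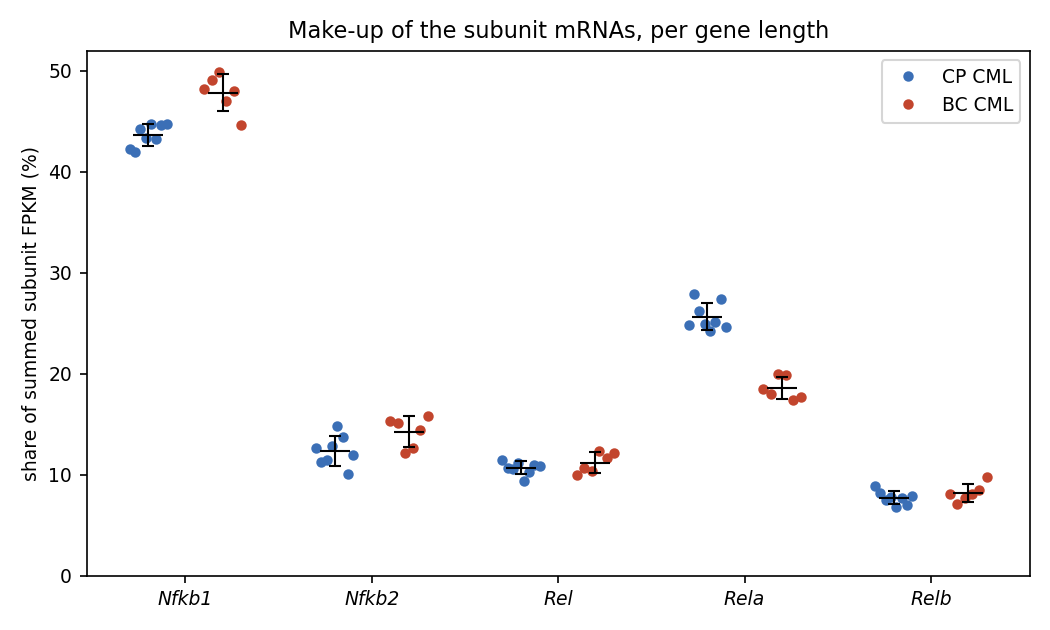
Share of each subunit in the summed FPKM of the 5 subunits (%, axis from 0), 1 point per mouse, CP CML in blue and BC CML in red, with the mean and SD in black. The share of Rela lies between 24.2 and 27.9% in CP CML and between 17.4 and 20% in BC CML.

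The 3 IκB transcripts did not move as a group. Nfkbie, which encodes IκBε, rose, with values from 26.8 (median 37.1) to 40.7 CPM in CP CML and from 49.6 (median 57.4) to 65.5 CPM in BC CML. All 6 BC CML mice were above all 8 CP CML mice for this gene, whose promoter window is among those printed, at 1.59 times the CP CML level (log2 fold change 0.67 ± 0.08, adjusted p = 9.37e-07, edgeR). Nfkbia, which encodes IκBα, the inhibitor that is degraded and resynthesized fastest, ran from 174.1 (median 193.8) to 234.7 CPM in CP CML and from 204.3 (median 229.9) to 241.8 CPM in BC CML. The groups overlapped, and the rise was 0.18 ± 0.06 on the log2 scale (adjusted p = 0.0141, edgeR). Nfkbib, which encodes IκBβ, fell, with values from 22.5 (median 24.4) to 28.0 CPM in CP CML and from 16.4 (median 18.9) to 21.2 CPM in BC CML. No mouse of either group reached the other (log2 fold change -0.39 ± 0.07, adjusted p = 6.33e-05, edgeR).

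In the order of levels per length, Nfkbia stood first in all 14 mice, and in CP CML it averaged 127.2 FPKM against 72.2 FPKM for Nfkb1. Nfkbie was below Rel in all 8 CP CML mice and above it in all 6 BC CML mice, with means of 14.8 and 17.6 FPKM in CP CML and of 23.5 and 20.03 FPKM in BC CML for Nfkbie and Rel. The count table gives Rel a length of 2.57 kb, whereas its longest coding transcript in GENCODE vM21 has 7.47 kb. The place of Rel in this order and its share of the subunit sum are therefore uncertain. Nfkbib was the lowest of the 10 in 13 of the 14 mice (11.7 ± 0.89 FPKM in CP CML and 8.96 ± 0.84 in BC CML, SD). Of 9 pairs of neighbours in the order of group means, 4 in CP CML differed by less than the larger of their SDs, namely Tnfaip3 and Rela, Nfkb2 and Ikbkb, Ikbkb and Rel, and Relb and Nfkbib. In BC CML 2 of 9 did, Nfkb1 with Tnfaip3 and Nfkb2 with Nfkbie. The summed FPKM of the 3 inhibitors over that of the 5 subunits was 0.93 ± 0.08 in CP CML and 0.987 ± 0.040 in BC CML (SD), and the groups overlapped. The ratio depends on gene length: its log2 was -0.11 and -0.02 per length and -1.24 and -1.18 from CPM without length, in CP CML and BC CML. Most of the inhibitor sum was Nfkbia.

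Tnfaip3 encodes A20, which removes or edits the ubiquitin chains on signaling proteins upstream of IKK and restrains the pathway. It had the largest rise of the 10 and the widest spread. Its level was lowest 132.0, median 180.7 and highest 383.1 CPM in CP CML, and lowest 253.0, median 381.7 and highest 438.6 CPM in BC CML. CP CML mouse 6 was the highest of its group, ahead of mouse 2 (253.1 CPM), and BC CML mice 5 (253.0 CPM) and 6 (267.5 CPM) stood at about the same level as CP CML mouse 2, while the other 4 BC CML mice were between 361.3 and 438.6 CPM. The log2 fold change was 0.78 ± 0.24 (adjusted p = 0.0115, edgeR), with a 95% interval from 0.26 to 1.30. Over the 14 fits that left out 1 mouse it ran from 0.70 without CP CML mouse 4 to 0.96 without CP CML mouse 6. Unlike Relb and Nfkb2, Tnfaip3 was low in BC CML mouse 6, which had the most B cell and myeloid marker reads.

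Ikbkb encodes IKKβ, the catalytic subunit that phosphorylates IκB proteins in the classical pathway. It ran from 267.4 (median 294.5) to 342.9 CPM in CP CML and from 166.2 (median 207.7) to 220.7 CPM in BC CML. The groups were well apart, and BC CML was at 0.66 times the CP CML level (log2 fold change -0.59 ± 0.08, adjusted p = 2.91e-06, edgeR). The count table gives Ikbkb a length of 15.8 kb, whereas its longest coding transcript in GENCODE vM21 has 3.98 kb, so its FPKM (19.0 in CP CML and 12.6 in BC CML) is low by that length and its place in the order of levels is uncertain. This does not touch the comparison between groups.

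**Figure D3:**
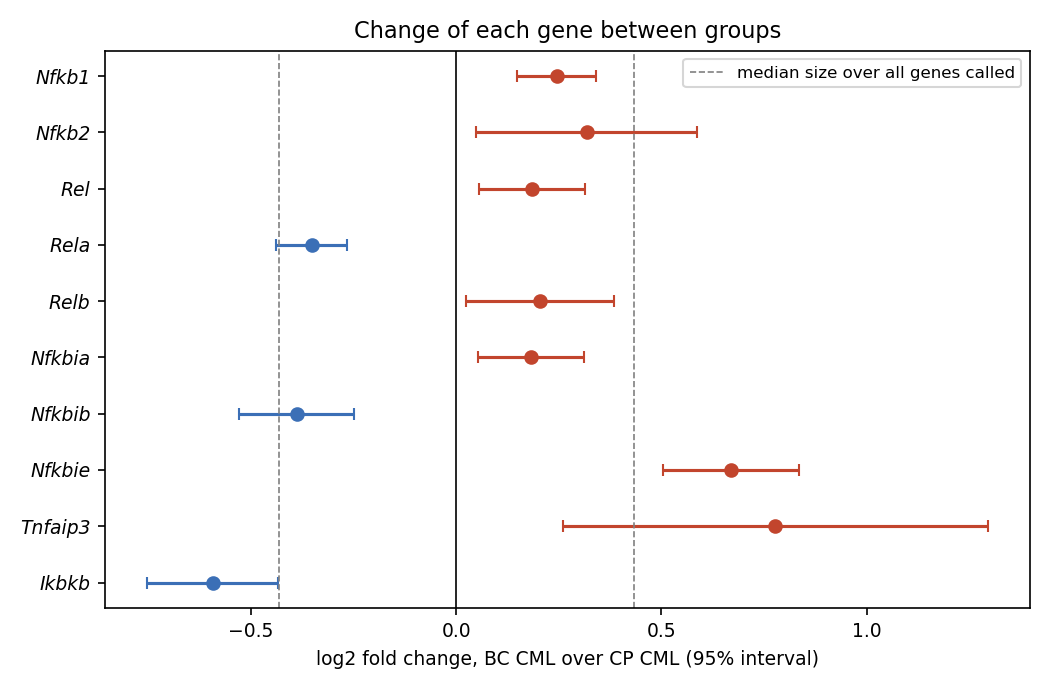
Log2 fold change of BC CML over CP CML for the 10 genes (points) with 95% intervals (bars), red for higher and blue for lower in BC CML. The dashed lines mark 0.43, the median size over all genes called; Nfkbie, Tnfaip3 and Ikbkb lie beyond them.

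The deleted microRNA gives mature miR-142a-5p and miR-142a-3p (RefSeq, GRCm38.p6, chromosome 11), shown with the seed, bases 2 to 8, in capitals because matches to it in a 3′UTR are the usual target sites.
mmu-miR-142a-5p: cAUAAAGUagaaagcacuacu
mmu-miR-142a-3p: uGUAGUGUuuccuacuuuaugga
The 3′UTRs of the 10 genes (GENCODE vM21, mm10) held a seed match only in Rel, and none matched miR-142a-3p. Rel had a pair of matches of 7 bases to miR-142a-5p (capitals below), at chr11:23737849-23737855 and chr11:23737563-23737569 on the minus strand.
Rel 3′UTR bases 4410 to 4416: ctgcctcccagACTTTATttatttttttt
Rel 3′UTR bases 4696 to 4702: gtttttagcagCTTTATAatttttggtaa
Neither was an 8-base site. Over 11509 tested genes with a 3′UTR, 23.5% held such a match to miR-142a-5p and 12.1% one to miR-142a-3p. The count table lists Rel from base 23741729 on, so that both matches lie in a stretch of the 3′UTR whose reads were outside the listed gene. Nfkb2 overlaps Psd and Gm38437, and Nfkbib overlaps Ccer2, each on the opposite strand. The strand setting of the counting is not given in the sources used here, so reads of these overlaps cannot be told apart.

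Outside the 10 genes, 108 of 110 other genes of the pathway were tested, and 75 of them (69.4%) were called, 44 higher and 31 lower, against 65.2% of all genes. Their median log2 fold change was 0.04. The groups did not overlap for 23 higher and 16 lower genes, where the shares over all genes were 19.3% and 17.6%.

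Of 16 receptors that signal to NF-κB, 12 were higher, 3 lower and 1 was not called (93.8% called, against 65.2% of all genes), with a median log2 fold change of 1.02. Tnfrsf1a, the TNF receptor with a death domain, rose from 42.2 ± 2.80 to 106.2 ± 9.76 CPM (SD; log2 fold change 1.33, adjusted p = 1.69e-12, edgeR) without overlap. Tnfrsf13c, the BAFF receptor of B cells, rose from 4.28 ± 1.01 to 15.5 ± 8.89 CPM (log2 fold change 1.86), and B cell markers rose with it. Tnfrsf4 (OX40), a costimulatory receptor of activated T cells, fell from 31.7 ± 2.95 to 20.3 ± 3.10 CPM, and Tnfrsf25 (DR3) fell from 30.9 ± 2.87 to 21.8 ± 4.04 CPM. Cd27, a costimulatory receptor of T cells, rose from 245.1 ± 25.0 to 480.1 ± 26.6 CPM, and Tnfrsf9 (4-1BB), induced by activation, from 43.4 ± 4.34 to 85.2 ± 13.2 CPM; both are named here after their values were seen. Others of the risen receptors, such as Cd40, Tlr2, Tlr4, Tlr9 and Il1r1, are also genes of B cells or myeloid cells, whose markers rose in the same mice, and the part of those cells was not tested. Several of the risen receptors were rare in these libraries, with Ltbr, Cd40 and Tnfrsf11a under 4 CPM on average in both groups.

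Of 10 TNF family ligands, 4 were higher, none was lower and 6 were not called (40% called, against 65.2% of all genes). Tnf, the cytokine itself, rose from 13.9 ± 4.09 to 31.2 ± 3.24 CPM (log2 fold change 1.16, adjusted p = 2.18e-05, edgeR), and Tnfsf10 (TRAIL) rose from 76.3 ± 2.64 to 192.3 ± 22.0 CPM, both without overlap.

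Of 11 TRAF, RIP and cIAP genes, 6 were lower, 2 higher and 3 were not called (72.7% called, against 65.2% of all genes, median log2 fold change -0.20). Traf3ip2 (Act1) fell to 66.8% and Traf5 to 76.2% of the CP CML level. Birc2 (cIAP1), a ubiquitin ligase that both aids TNF receptor signaling and holds back the alternative pathway, rose from 131.4 ± 3.05 to 248.3 ± 14.5 CPM (log2 fold change 0.92 ± 0.04, adjusted p = 6.94e-13, edgeR), and Traf2, its binding partner, from 46.0 ± 3.05 to 58.9 ± 2.90 CPM. Of 7 genes of the MyD88 and IRAK module, 3 were lower, none was higher and 4 were not called (42.9% called, against 65.2% of all genes). Myd88 itself fell from 91.3 ± 8.01 to 64.7 ± 4.25 CPM.

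From the T cell receptor to IKK, 4 of 8 genes were higher, 1 was lower and 3 were not called (62.5% called, against 65.2% of all genes). Vav1, a guanine nucleotide exchange factor of T cell receptor signaling, was higher, from 261.9 ± 17.9 to 298.7 ± 18.8 CPM (log2 fold change 0.19, adjusted p = 0.0026, edgeR). Pdpk1, a kinase upstream of several others, was lower, from 200.5 ± 9.38 to 178.9 ± 7.36 CPM (log2 fold change -0.16).

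In the IKK complex and its upstream kinases, 2 of 12 genes were higher, 3 lower and 7 were not called (41.7% called, against 65.2% of all genes). Ikbkg, which encodes the scaffold NEMO, fell from 100.5 ± 10.7 to 76.8 ± 7.93 CPM (log2 fold change -0.39, adjusted p = 0.000235, edgeR), in the same direction as Ikbkb. Chuk, which encodes IKKα, was not called, with 112.3 ± 9.35 and 110.0 ± 6.50 CPM and a log2 fold change whose 95% interval ran from -0.14 to 0.08. The IKK-related kinase Ikbke fell from 288.6 ± 37.5 to 198.9 ± 17.0 CPM, whereas Map3k8 and Tank were higher (0.35 and 0.17 on the log2 scale). Map3k8 lost its call without BC CML mouse 3 (log2 fold change 0.22, adjusted p = 0.0514, edgeR). Tank lost its call without BC CML mouse 1 (log2 fold change 0.13, adjusted p = 0.0584, edgeR). Map3k14, which encodes NIK, the kinase of the alternative pathway, is named after its values were seen and fell from 91.7 ± 5.74 to 74.4 ± 5.62 CPM.

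Of 14 genes of ubiquitin editing and deubiquitination, 5 were higher, 6 lower and 3 were not called (78.6% called, against 65.2% of all genes). All 3 genes of the linear ubiquitin ligase complex were lower, Rnf31 (HOIP) at 78.5% of the CP CML level, Rbck1 at 87.4% and Sharpin at 88.4%, the last pair being named after their values were seen. Among the partners of A20, Rnf11 was higher (22.7 ± 2.19 to 32.3 ± 1.79 CPM) and Tax1bp1 lower (267.8 ± 13.8 to 233.9 ± 9.26 CPM). Zc3h12a (Regnase-1), which degrades inflammatory mRNAs, was higher, from 35.9 ± 3.65 to 45.3 ± 2.48 CPM. Of 7 other IκB proteins and regulators, 3 were higher, 2 lower and 2 were not called (71.4% called). Nfkbiz (IκBζ) rose from 135.0 ± 14.7 to 186.4 ± 40.7 CPM and Bcl3, a nuclear IκB protein that binds p50 and p52, fell from 82.8 ± 9.23 to 67.1 ± 6.79 CPM. The regulator Nkiras2 was higher (0.27) and the repressor Nkrf lower (-0.31).

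Reported NF-κB target genes did not move in 1 direction: of 23 tested, 12 were higher, 7 lower and 4 were not called (82.6% called, against 65.2% of all genes, median 0.26), and Il6 and Ptgs2 did not pass the filter. The chemokine genes Ccl3 and Cxcl10 rose most among those named, from 1.29 ± 0.75 to 11.9 ± 6.52 CPM and from 1.67 ± 0.64 to 7.40 ± 3.04 CPM. Both were rare. The marker sums of myeloid cells, natural killer cells, and effector and memory T cells rose in the same mice, and the part of those cells was not tested. Irf4, a transcription factor induced by T cell receptor signals, fell from 33.5 ± 4.14 to 23.1 ± 3.61 CPM (log2 fold change -0.54, adjusted p = 0.000131, edgeR), and Junb from 321.3 ± 50.4 to 243.2 ± 29.5 CPM. Bcl2l1 (BCL-XL), an inhibitor of apoptosis named after its values were seen, rose from 19.0 ± 2.18 to 40.3 ± 2.30 CPM. In the same mice all 7 naive T cell markers were lower, against 32.7% of all genes. Their sums were 4890 to 6238 CPM in CP CML and 2683 to 3852 CPM in BC CML. Of 10 effector and memory markers 9 were higher, against 32.6% of all genes, with sums of 1138 to 1384 CPM and of 2230 to 2864 CPM. The part of this shift in the values of the pathway was not tested.

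**Figure D4:**
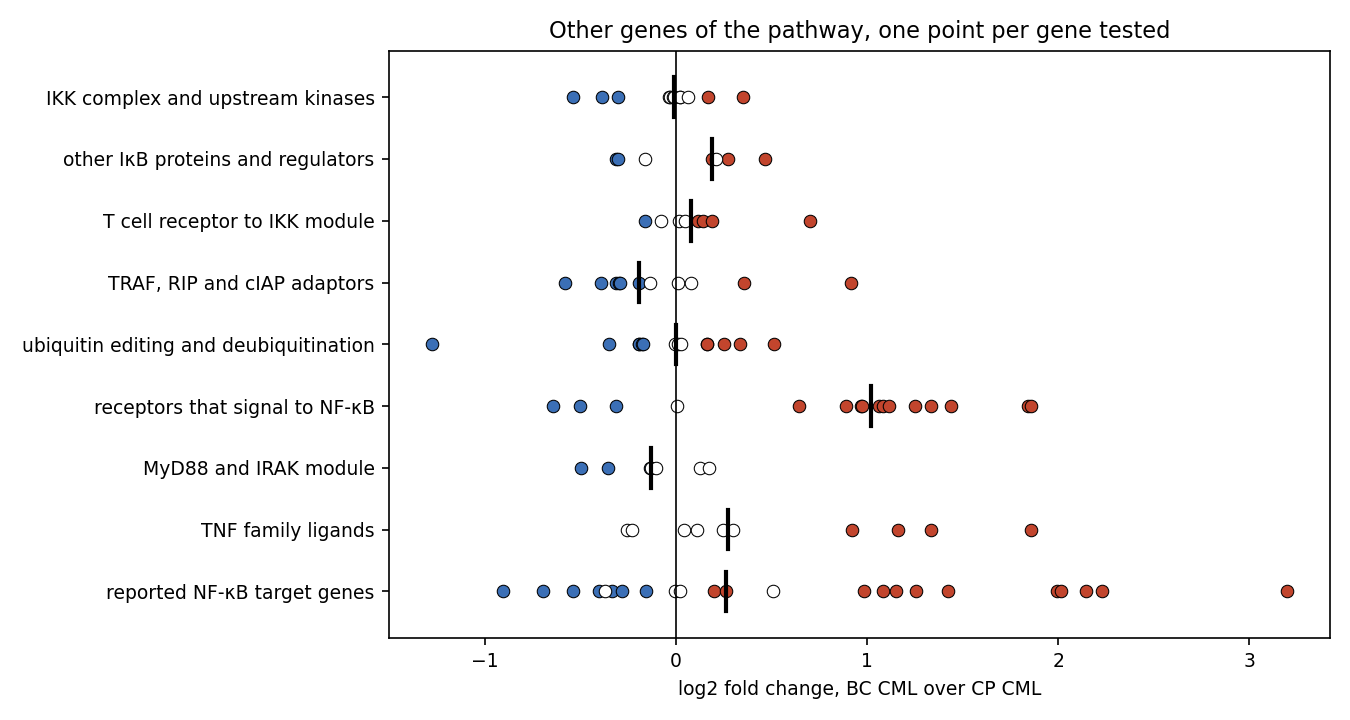
Log2 fold change of BC CML over CP CML for each of the 108 tested genes of 9 pathway lists, 1 point per gene, red for called higher, blue for called lower and white for not called, with the list's median as a black bar. The median of the receptors is 1.02 and that of the adaptors -0.20.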

How the data were processed

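Spleen T cells of 8 CP CML and 6 BC CML mice were analysed, 1 library per mouse of paired 101-base reads. The values are raw read counts per gene (mm10), deposited by the authors with no normalization. The submitters' processing notes name Trimmomatic, STAR 2.6.0, HTSeq 0.11.1 and edgeR. The annotation used for counting is not given in the sources used here.

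Columns were matched to mice by name, that of BC CML mouse 5 ending in RP, a suffix the labels do not explain. In R 4.3.3 with edgeR 4.0.16, genes were kept by filterByExpr, scaled with TMM factors and compared by a robust quasi-likelihood F-test (no covariate, Benjamini-Hochberg at 0.05). The methods of the study name the likelihood ratio test, which was an alternative here, as were DESeq2 1.42.0, scaling by RLE factors or by library size only, dropping the filter or asking for more than 1 CPM in 6 samples, a replicate block and leaving out each mouse. CPM and FPKM were computed here from TMM-scaled library sizes. The 10 genes were all named, with Mir142. In each pathway list the 2 largest rises and falls were named among genes called with an average log2 CPM of at least 2. A result that this rule names is not reported here. The genes, lists and tests were chosen with earlier results of these data known. The scripts were tested on simulated data. Depth was 15703702 to 19914531 reads per library. Pairs of libraries within a group differed by more than sampling noise, and each was counted as 1 replicate.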

Additional observations from a re-analysis of the deposited data

Results flagged for a closer look

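In 3 of 82 groups of mice examined (the 10 genes and the pathway genes picked by the naming rule, each within each group), the highest or lowest mouse stood far from the others by Dixon's criterion, where chance alone gives about 4.1. None of the 10 genes was among them. Tax1bp1 was highest in BC CML mouse 6, at 251.3 CPM against 235.4 CPM in the next mouse. Irak3, a negative regulator of Toll-like receptor signaling, was highest in the same mouse, at 8.28 CPM against 5.36 CPM. Ccl3 was highest, among the CP CML mice, in mouse 8, at 3.02 CPM against 1.60 CPM.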

How the results depend on the processing

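Of the 10 genes, 5 to 7 were called higher and 3 lower under each of the 7 other settings and each of the 14 fits without 1 mouse, and no log2 fold change changed sign. Without both mice of the highest B cell marker sums, 4 were called higher, since Nfkb2, Relb and Nfkbia lost their call, with log2 fold changes of 0.27, 0.16 and 0.16. The calls over all genes numbered 7318 to 8719 under the other settings, against 7986. Relb also lost its call with library size alone (adjusted p = 0.0619), and Relb (0.0553) and Nfkb2 (0.0623) lost it with no filter. The cause was not tested. Of the other genes named, Map3k8 lost its call without BC CML mouse 3 (log2 fold change 0.22 against 0.35). Tank lost it without BC CML mouse 1 and without both mice of the highest B cell marker sums (log2 fold change 0.15, adjusted p = 0.0591). Irak3 lost it in 8 of the 14 fits without 1 mouse. Without gene length, Rela made up 18.6% of the subunit sum in CP CML and 13.1% in BC CML.

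The groups share the replicate numbers 1 to 6 in the labels, but the mice are different animals, and same-numbered mice did not deviate together (correlations of -0.27 to 0.36). With the replicate number as a block, 7318 genes were called, 5 of the 10 genes were higher and 3 lower, and 3 of the genes named in the text lost their call: Relb (log2 fold change 0.15 against 0.20, adjusted p = 0.0817), Tnfaip3 (0.77 against 0.78, adjusted p = 0.0636) and Irak3 (-0.36 against -0.35, adjusted p = 0.103).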
